A study of Mus musculus with 16 samples.

Results

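The regions described here are 1709 stretches of chromatin in 3T3-L1 preadipocytes that carried H3K27ac away from promoters before differentiation, had no H3K27ac island 48 h later in cells with an empty vector, and still had one in cells that expressed SETD5. They were chosen by measured values, namely the presence or absence of islands, which are stretches of enriched reads called separately in each library. A member is an H3K27ac island of replicate A in empty-vector cells at 0 h that overlaps replicate B by at least 1 bp, overlaps no island of either empty-vector replicate at 48 h, overlaps an island in both SETD5 replicates at 48 h, and touches no promoter. A promoter was taken as 1000 bp upstream to 100 bp downstream of any annotated transcript start. Of 33704 islands in the starting list, 30564 were shared with replicate B and 20028 of these lay outside promoters. From both empty-vector lists at 48 h, 7444 of the 20028 distal islands were missing, and 1709 of the 7444 (23.0%) met the rule.

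The 3T3-L1 line consists of mouse fibroblasts that turn into fat cells when treated with hormones. The cells carried a retroviral vector for SETD5 with a V5 tag at its C terminus (SETD5-V5), or the empty vector, driven by a weak viral promoter. At 0 h, when cells had been confluent for some days, insulin, dexamethasone and isobutylmethylxanthine (MDI) were added to start differentiation, and 48 h later the cells were still early in that program. H3K27ac was measured in cells of both vectors at 0 h and 48 h, with replicates A and B of each, which the study calls biological. The tagged protein was followed with a V5 antibody at 0 h and 6 h (replicates A and B), although the labels of V5 replicate A leave the virus blank while the titles name SETD5-V5. H3K4me1 at 0 h and 48 h and endogenous SETD5 at 0 h and 6 h have 1 library each and so no replicate check. The labels give the SETD5-V5 virus for H3K4me1, whereas the study shows this mark as one of untransduced preadipocytes, so which vector these cells carried is uncertain.

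Acetylation of lysine 27 of histone H3 marks enhancers and promoters that are in use, and methylation of lysine 4 to a single methyl group marks enhancers more broadly, including those that are primed but inactive. SETD5 belongs to the SET domain proteins and is found with the NCoR-HDAC3 corepressor, a complex that removes acetyl groups from histones. When preadipocytes differentiate, enhancers of the fibroblast state lose acetylation while those of fat cell genes gain it.

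The H3K27ac lists held 31292 to 39949 islands each, the V5 lists 6666 and 16054 islands at 0 h and 27220 and 35573 at 6 h, the H3K4me1 lists 50276 and 49926, and the endogenous SETD5 lists 2132 and 3293. The lists give no read counts, so the depth behind a single island is unknown, and a region missing from a list was below the caller's threshold rather than shown to lack the mark. Both SETD5-V5 lists at 48 h (39068 and 39451 islands) were longer than both empty-vector lists (31292 and 33131), and the study's reporting summary lists more total reads for them. A longer list finds more regions, so its part in the rule was not tested beyond the lists of equal length given below. Since the cells were measured in bulk, fewer cells with a mark and less of it per cell cannot be told apart. All 12 fibroblast marker genes examined, Pdgfra, Thy1, Col1a1 and Twist1 among them, had a promoter island in all 8 H3K27ac lists, and 0 of 16 markers of blood, endothelial, epithelial, muscle, liver, nerve and stem cells had one in any.

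The strongest members are shown first as sequence, because these 6 regions held the highest island scores at 0 h and their motif content can be set beside that of the rest. From each, the 200 bases with the most matches to 9 transcription factor words were taken from the plus strand of mm9 (NCBIM37). The windows are chr12:34830723-34830922 in an intron of Hdac9, chr10:37294100-37294299 between genes, chr8:109042416-109042615 in an intron of Cdh3, chr2:160009545-160009744, chr15:43836643-43836842 and chr3:83165445-83165644, the last 3 between genes. Capitals mark exact matches on either strand to a TEAD word (GGAATG), a C/EBP word (TTGCNNAA), a RUNX word (TGTGGT), an EBF word (CCCNNGGG) or an AP-1 word (TGANTCA), and neighbouring matches to the EBF word can overlap. 
Hdac9 intron: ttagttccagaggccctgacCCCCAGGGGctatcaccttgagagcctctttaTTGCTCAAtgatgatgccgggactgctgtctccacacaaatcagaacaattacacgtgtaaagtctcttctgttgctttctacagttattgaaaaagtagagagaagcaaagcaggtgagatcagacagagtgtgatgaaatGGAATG
Chromosome 10 region: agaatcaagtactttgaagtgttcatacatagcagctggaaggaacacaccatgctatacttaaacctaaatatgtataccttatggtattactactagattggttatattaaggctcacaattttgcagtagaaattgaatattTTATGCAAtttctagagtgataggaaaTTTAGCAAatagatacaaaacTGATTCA
Cdh3 intron: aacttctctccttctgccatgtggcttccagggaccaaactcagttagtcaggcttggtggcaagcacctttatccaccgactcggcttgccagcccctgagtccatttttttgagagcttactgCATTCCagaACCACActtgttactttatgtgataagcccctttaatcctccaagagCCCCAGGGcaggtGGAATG
Chromosome 2 region: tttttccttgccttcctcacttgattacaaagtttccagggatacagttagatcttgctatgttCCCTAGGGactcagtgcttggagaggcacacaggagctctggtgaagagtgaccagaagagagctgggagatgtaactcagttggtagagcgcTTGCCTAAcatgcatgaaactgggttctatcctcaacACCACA
Chromosome 15 region: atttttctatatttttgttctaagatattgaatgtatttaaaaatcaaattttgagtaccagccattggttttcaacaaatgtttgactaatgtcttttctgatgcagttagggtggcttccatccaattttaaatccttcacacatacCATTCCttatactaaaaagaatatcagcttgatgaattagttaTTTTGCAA
Chromosome 3 region: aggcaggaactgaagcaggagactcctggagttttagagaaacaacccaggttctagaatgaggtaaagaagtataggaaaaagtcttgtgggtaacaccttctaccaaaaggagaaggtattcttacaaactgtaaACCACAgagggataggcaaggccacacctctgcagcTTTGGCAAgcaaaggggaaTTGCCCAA

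C/EBP words occurred in 5 of the 6 windows, and the AP-1 word, the site of Fos and Jun dimers, occurred in 1. Such words are common everywhere in distal chromatin. In the central 1000 bp of each island, so that all have 1 length, the AP-1 word was found in 33.7% of members, 33.7% of islands lost with both vectors and 35.3% of all 20028 distal islands. For the C/EBP word, read by the factors that open adipocyte enhancers, the shares were 42.9%, 42.8% and 42.5%. The RUNX word was found in 56.8% of members, 56.9% of lost islands and 56.0% of all. The TEAD word, bound by the partners of YAP, was found in 51.2% of members, 54.9% of lost islands and 50.5% of all, and the EBF word in 19.7%, 18.5% and 21.9%. Longer words were rare: over whole islands the NFI word matched in 12 members (0.702%, against 0.424% of all distal islands), the glucocorticoid receptor word in 79 (4.62% against 6.74%), the CTCF word in 10 (0.585% against 0.739%) and the PPAR word in 13 (0.761% against 0.919%). In these short words members were close to the distal islands as a whole. Over whole islands the AP-1 word was found in 65.0% of members and 60.5% of lost islands, a gap of 4.42 percentage points that was gone in the central 1000 bp, where island length no longer enters. Members with V5 in both replicates at 6 h had the AP-1 word in the central 1000 bp at 39.1%, and members with no V5 island at 6 h at 29.0%, and islands lost with both vectors showed a like split (43.5% and 30.5%).

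The 6 strongest members were long acetylated regions at 0 h whose islands were shorter at 48 h with SETD5. The strongest, chr12:34827401-34837000, lies in an intron of Hdac9, 185 kb from the start of Twist1, a basic helix-loop-helix factor of mesenchyme. Its H3K27ac island measured 9600 and 10000 bp in replicates A and B of empty-vector cells at 0 h, 5400 and 10200 bp in SETD5-V5 cells at 0 h, and 2400 and 4200 bp in SETD5-V5 cells at 48 h. V5 covered it with an island of 5600 bp in replicate A at 0 h, none in replicate B, and islands of 5400 and 4200 bp at 6 h. H3K4me1 was called there at 0 h (1800 bp) and not at 48 h. In the starting list, 3.92% of islands had a higher score.

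A pair of strong members on chromosome 10 stood far from any protein-coding start. The first, chr10:37286401-37294400, had H3K27ac islands of 8000 and 9800 bp at 0 h with the empty vector, 8400 and 7600 bp at 0 h with SETD5-V5 and 3400 and 3200 bp at 48 h with SETD5-V5. It had no V5 island at 0 h in either replicate and 3200 and 3400 bp at 6 h. The second, chr10:37136001-37149200, named because it is the sixth strongest member with V5 in both replicates at 6 h, went from 13200 and 10400 bp at 0 h with the empty vector to 2800 and 3200 bp at 48 h with SETD5-V5. Its V5 islands measured 3000 bp in replicate A at 0 h, none in replicate B, and 3400 and 1800 bp at 6 h. The nearest protein-coding start, that of 5930403N24Rik, is 427 kb from the first and 277 kb from the second, and H3K4me1 was called at the first alone, at 0 h (2600 bp).

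The third strongest member, chr8:109038801-109047800, lies in an intron of Cdh3, which encodes P-cadherin, 3.99 kb from a start of that gene. Its island went from 9000 and 13400 bp at 0 h with the empty vector and 14000 and 14800 bp with SETD5-V5 to 2000 and 1200 bp at 48 h with SETD5-V5. V5 islands there measured 9800 bp (replicate A) and none (replicate B) at 0 h, and 19000 and 9400 bp at 6 h. H3K4me1 was found at both times, with islands of 4600 bp at 0 h and 3000 bp at 48 h.

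The remaining 3 lay 126 to 222 kb from a protein-coding start. At chr2:160008001-160013200 the island measured 5200 and 6200 bp at 0 h with the empty vector and 1400 and 2000 bp at 48 h with SETD5-V5. It is the single member of the 6 without V5 in both replicates at 6 h (3000 bp in replicate A, none in replicate B), and its H3K4me1 island was longer at 48 h (6000 bp) than at 0 h (3800 bp). At chr15:43833601-43841400, nearest to Tmem74, the island went from 7800 and 3800 bp to 2600 and 3200 bp, and at chr3:83155601-83166800 from 11200 and 6400 bp to 2600 and 3400 bp. Both had V5 islands in both replicates at 6 h (2600 and 4000 bp, and 4600 and 8200 bp) and H3K4me1 at 0 h alone. No endogenous SETD5 island was called at any of the regions named so far.

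Shorter islands at 48 h were found at most members. With the empty vector at 0 h the median island of members was 2800 bp in replicate A and 2400 bp in replicate B, and in SETD5-V5 cells at 0 h it was 2600 and 3000 bp. At 48 h with SETD5-V5 the medians were 1600 and 1800 bp, and 82.5% and 75.3% of members had an island shorter than the starting one. In replicate B of the same empty-vector condition at 0 h, 63.5% were shorter. Over all islands of a list the median was 2800 and 2200 bp with the empty vector at 0 h, 2000 and 2600 bp with SETD5-V5 at 0 h and 2000 and 2200 bp with SETD5-V5 at 48 h, so list-wide lengths varied too. SETD5-V5 islands at 48 h covered a median of 57.5% and 64% of the member's length, against 85.6% and 90.2% for SETD5-V5 islands at 0 h.

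The ranks of these islands were lower as well. Within its own list, the island of a member sat at a median score percentile of 41.8 and 45.1 with the empty vector at 0 h, 56.6 and 55.2 with SETD5-V5 at 0 h, and 27 and 29.3 with SETD5-V5 at 48 h. Islands kept with both vectors were at 60.6 and 64.0, 66.4 and 66.0, and 67.8 and 69.7 in the same lists, which differ in length. At 48 h 11.9% and 15.1% of members were above the median score of the SETD5-V5 list, compared with 74.7% and 76.5% of islands kept with both vectors. These values describe what the rule selected, since the 48 h lists chose the members, and they were not tested.

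**Figure D1:**
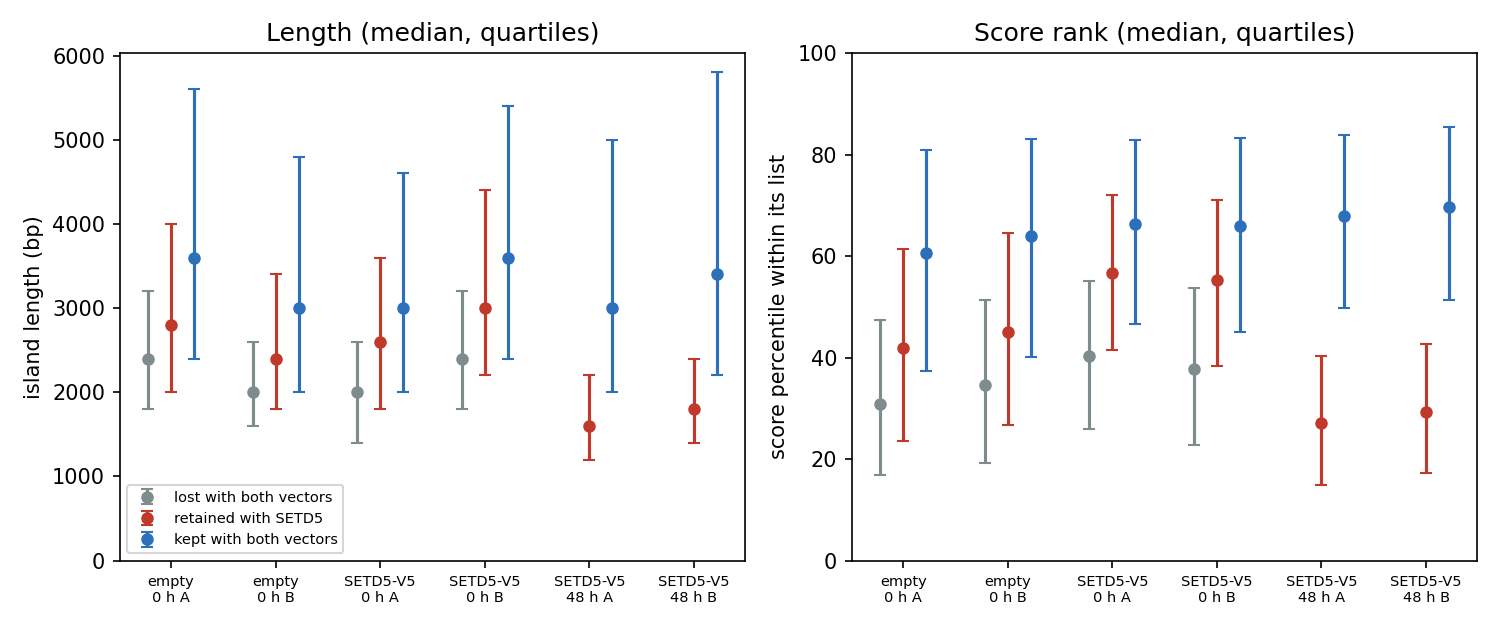
Length in bp (left) and score percentile within its own list (right) of the H3K27ac island at each site, by vector, time and replicate; points are medians and bars run from the first to the third quartile over islands. Members (red) are at median lengths of 1600 and 1800 bp and median percentiles of 27 and 29.3 in the SETD5-V5 lists at 48 h, while islands kept with both vectors (blue) are at 3000 and 3400 bp there, and islands lost with both vectors (grey) have none there.

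Near the edge of the rule, membership turned on small differences. Just outside it, 1232 distal islands were in both SETD5-V5 lists at 48 h and in a single empty-vector list at 48 h, with a median length of 2800 bp and a median score percentile of 43.9, next to 2800 bp and 41.8 for members. A further 977 were in a single SETD5-V5 list at 48 h (2600 bp, percentile 36.5). Just inside it, 7 and 5 members overlapped the 48 h SETD5-V5 islands of replicates A and B by at most 200 bp. These islands covered at least 50% of the length of 1068 and 1170 of the 1709 members. With every overlap between islands held to at least 50% of the starting island, 1230 regions met the rule. In that setting 51.9% of the 1709 members were found again. An empty-vector 48 h island lay within 1000 bp of 87 members (5.09%). The opposite pattern, islands present in both empty-vector lists at 48 h and in neither SETD5-V5 list, was found at 305 distal islands. After each list was cut to the 31000 islands with the best scores, 905 regions met the rule (14.3% of 6350) and 500 the opposite pattern, and 45.8% of the 1709 members were found again. Requiring every island to be above its list's median score gave 848 regions, of which 74 coincided with members (4.33% of the 1709). This cut acts on every list, and 1040 of the 1709 members were at or below the median score of the starting list.

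The remaining lists did not enter the rule, but what they show is not independent of the selection. In the starting list members had a median score percentile of 41.8 and a median length of 2800 bp. For islands lost with both vectors these were 30.9 and 2400 bp. In each list outside the rule, members were compared with 4758 distal islands lost with both vectors, 10143 kept with both and all 20028. H3K27ac of SETD5-V5 cells at 0 h was found at 97.0% of members in replicate A and 95.4% in replicate B, against 92.0% and 89.7% of all distal islands. For islands lost with both vectors the shares were 82.0% and 77.7%, and for islands kept with both they were 96.6% and 95.5%. Members thus exceeded the lost islands by 16.3 ± 1.89 percentage points (SD, n = 2) and the kept islands by 0.120 ± 0.378, within the spread between replicates. The gap to lost islands lay mostly among weak islands. At or below the starting list's median score 95.1% and 92.4% of members and 77.8% and 72.6% of lost islands were found, and above it 100% of members in both replicates and 97.3% and 95.9% of lost islands. The 0 h and 48 h SETD5-V5 lists share the vector, and its part in this difference was not tested.

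**Figure D2:**
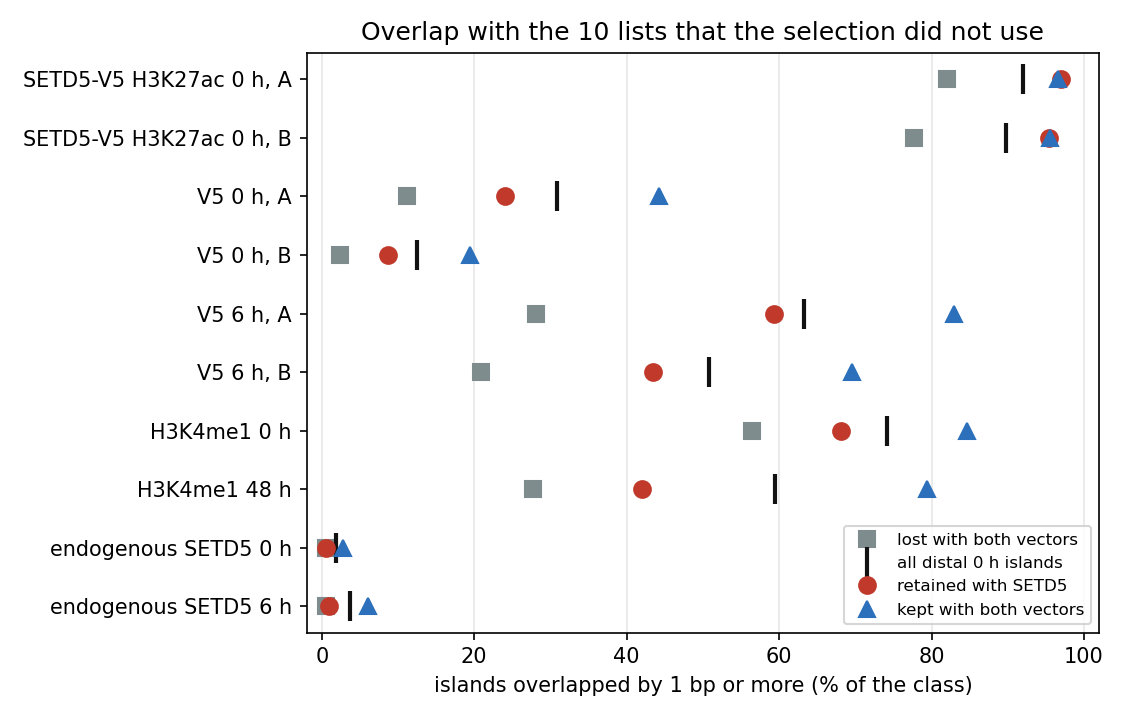
Share of islands, in percent of each class, that an island of each of the 10 lists on the vertical axis overlaps by 1 bp or more; each symbol is 1 library. Members (red circles) lie between the islands lost with both vectors (grey squares) and those kept with both (blue triangles) in every V5 and H3K4me1 list, and to the left of all distal islands (black bars) there.

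V5, the tag on transduced SETD5, was found at more members at 6 h than at 0 h. At 0 h V5 islands overlapped 24.1% of members in replicate A and 8.66% in replicate B (mean 16.4% ± 10.9, SD, n = 2), and at 6 h they overlapped 59.3% and 43.4% (51.3% ± 11.2, n = 2). Both 6 h libraries were above both 0 h libraries, a difference of 35.0 percentage points with an exact two-sided permutation p of 0.333, which is the smallest that 2 against 2 libraries can give. With whole lists all distal islands did much the same, with 30.9% (replicate A) and 12.5% (replicate B) at 0 h and 63.2% and 50.8% at 6 h. The V5 lists at 6 h held over 2 times as many islands as those at 0 h. When each was held to its 6000 highest-scoring islands, the members' shares were 9.19% and 8.02% at 0 h. At 6 h they were 10.8% and 10.2%, a difference of 1.90 percentage points. At the same cut all distal islands rose more, from 15.1% and 11.5% at 0 h to 21.5% and 19.7% at 6 h.

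Relative to lost islands, members more often carried V5. At 6 h 28.1% and 20.9% of islands lost with both vectors had a V5 island, so that members exceeded them by 31.2 percentage points in replicate A and 22.5 in replicate B (26.9 ± 6.09, SD, n = 2). Members were below islands kept with both vectors (83.0% and 69.5%) with differences of -23.7 and -26.1 percentage points, and were below all distal islands in both replicates. At 0 h the order of the classes was the same, with members 12.9 and 6.24 percentage points above lost islands. The gap at 6 h remained among islands of 1400 to 2600 bp, where 52.9% and 36.3% of members and 25.0% and 18.5% of lost islands had V5. No test over islands was made, because neighbouring islands of a library are not replicates.

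V5 in both 6 h replicates was found at 690 members (40.4%), a share below that of all distal islands (48.1%). Of these, 413 (24.2% of members, against 22.8% of all distal islands) had no V5 island at 0 h and 277 (16.2% against 25.4%) had one in at least 1 replicate. No V5 island was called in any of the 4 lists at 576 members (33.7%), close to the 31.7% of all distal islands, with 64.4% of islands lost with both vectors and 13.8% of those kept. Endogenous SETD5, in much shorter lists, overlapped 9 members at 0 h (0.527%) and 16 at 6 h (0.936%), below the 1.89% and 3.71% of all distal islands. Of islands lost with both vectors it overlapped 0.525% at 0 h and 0.546% at 6 h, so members were level with them at 0 h. In all, 21 members had an endogenous SETD5 island at 1 time or both.

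H3K4me1 was found at fewer members at 48 h than at 0 h. At 0 h it was found at 68.1% of members and at 74.2% of all distal islands, and at 48 h at 42.0% and 59.5%. Islands lost with both vectors had it at 56.4% at 0 h and 27.7% at 48 h, so that members were higher by 11.7 and 14.4 percentage points. Islands kept with both vectors had it at 84.6% and 79.4%. Among members with H3K4me1 at 0 h, 56.5% (657 of 1163) still had it at 48 h, compared with 44.5% of lost and 87.8% of kept islands with the mark at 0 h. With 1 library at each time, none of these differences has a replicate error, and the vector of these cells is in doubt as described above.

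Members therefore fell into 3 large groups by this mark. It was found at both times at 657 members (38.4%), at 0 h alone at 506 (29.6%), at neither time at 485 (28.4%) and at 48 h alone at 61 (3.57%). Over all distal islands these shares were 55.2%, 19.0%, 21.5% and 4.33%. Acetylation without an H3K4me1 island at either time was more common among lost islands (41.1%) and less common among kept islands (10.3%). The highest-scoring examples above belong to several of these groups, the Cdh3 intron to the first and the Hdac9 intron to the second.

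**Figure D3:**
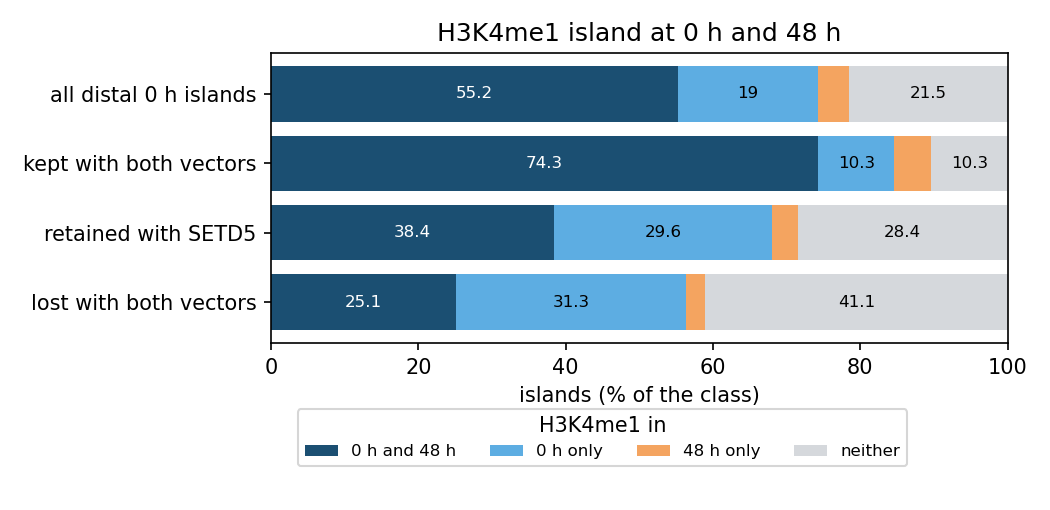
Share of islands (percent of each class, horizontal axis) with an H3K4me1 island at 0 h and 48 h, at 0 h alone, at 48 h alone or at neither time, from 1 library at each time. The mark was found at both times at 38.4% of members, between 25.1% of islands lost with both vectors and 74.3% of islands kept with both.

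V5 and H3K4me1 went together among members. Of 1163 members with H3K4me1 at 0 h, 66.6% and 49.3% had V5 at 6 h in replicates A and B, and of 546 without it 43.6% and 31.0%. Split by H3K4me1 at 48 h, the V5 shares at 6 h were 72.6% and 54.0% with the mark and 49.6% and 35.7% without. The excess of members over lost islands was present on either side of the first split: lost islands had V5 at 36.8% and 26.7% with H3K4me1 at 0 h and at 16.9% and 13.3% without. Members above the starting list's median score had V5 at 65.2% and 49.6% at 6 h and weaker members at 55.5% and 39.4%, so island strength at 0 h moved with V5 too. At 258 members (15.1%, against 13.9% of all distal islands) neither V5 nor H3K4me1 was called in any list, and 340 (19.9% against 35.2%) had V5 in both 6 h replicates and H3K4me1 at both times.

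By position, 889 members (52.0%) were centred between genes, 790 (46.2%) in introns and 30 (1.76%) in exons of the GENCODE annotation of mm9. Of all distal islands 55.1% were intergenic, of lost islands 61.2% and of kept islands 52.7%. The median distance from a member to the nearest protein-coding transcript start was 45.5 kb, next to 39.5 kb for all distal islands, 53.8 kb for lost and 33.0 kb for kept islands. Within 50 kb of such a start lay 896 members (52.4%, against 56.0% of all distal islands), with 766 genes nearest to them. These are 14.2% of the 5378 genes nearest to any distal 0 h island, and 658 of the 766 had a single member, 88 had 2, 18 had 3 and 2 had 4. Nearness does not show which gene a region acts on, and expression was not analysed here.

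Col14a1, the gene of a fibril-associated collagen, had 4 members and the largest summed score among the genes with 4. They lie at chr15:55098401-55101000 upstream of the gene and at chr15:55164401-55167800, chr15:55246801-55251200 and chr15:55262001-55272800 in its introns. The last of these measured 10800 and 6600 bp in empty-vector cells at 0 h, 10600 and 7400 bp in SETD5-V5 cells at 0 h, and 1000 and 2000 bp in SETD5-V5 cells at 48 h. All 4 had V5 in both replicates at 6 h and H3K4me1 at both times. Counting members without the distance limit, 6 lie in a span of 174 kb here, with 3 islands lost with both vectors and 0 kept with both. The span ends at members, and 2 of the 11 distal islands nearest to Col14a1 were kept with both vectors. At the promoter of Col14a1, H3K27ac islands were present in both lists of either vector at 0 h. At 48 h they were present in both SETD5-V5 lists and in neither empty-vector list. The rule of the members reads the whole 0 h island, which here reached beyond the promoter. In replicate A with the empty vector it ran from -2.10 to 5.30 kb of the gene's start. An empty-vector island of replicate B at 48 h lay within that stretch, at 2.70 to 4.30 kb.

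**Figure D4:**
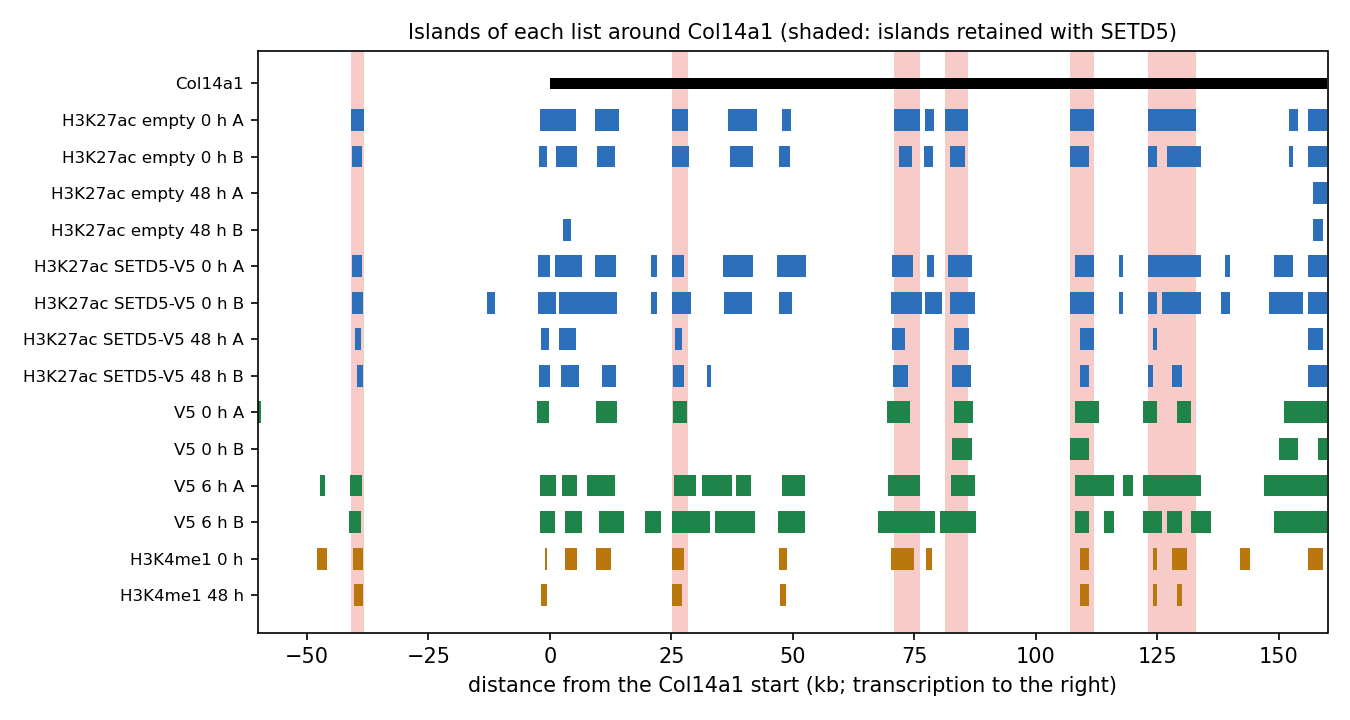
Islands of each H3K27ac, V5 and H3K4me1 list (tracks) around Col14a1, drawn to scale in kb from the gene's start, with the gene as a black bar and members shaded in red. Of the 6 shaded regions, all are filled at 0 h and in the SETD5-V5 tracks at 48 h and empty in both empty-vector tracks at 48 h, and V5 islands at 6 h lie on each.

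Vps13d, which encodes a lipid transfer protein and is the name of 2 annotated genes, also had 4 members, of lower score (34.0 to 271) and none with V5 in both replicates at 6 h. Genes with 3 members came next. Pgm5, a phosphoglucomutase-like protein of cell junctions, had 3 intronic members, all with V5 at 6 h in both replicates and H3K4me1 at 0 h alone. Thbs1, the gene of the matricellular thrombospondin-1, had 3 members downstream of the gene, all with V5 in both 6 h replicates, and V5 in both 0 h replicates at the nearest, chr2:117953801-117955600. Another of the 3, chr2:117972801-117977600, had an endogenous SETD5 island at 6 h. Osr2, a zinc finger factor of mesenchyme, had 3 members 2.65 to 15.7 kb from its start, and V5 was present in both replicates at 6 h at each. Smoc2, a secreted calcium-binding protein, had 3 members of which 1 started 0.288 kb inside the gene, and V5 was called in no more than 1 replicate at any time.

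At other genes with 3 members V5 was rarer. At Kif4, a mitotic kinesin on chromosome X, 3 intronic members of 2800, 7000 and 1800 bp had no V5 and no H3K4me1 island in any list. At Gm11353, a predicted gene, 3 members had H3K4me1 at 0 h and no V5 island. Veph1 had 3 intronic members, with V5 in both 6 h replicates at 1 of them. Lclat1, a cardiolipin acyltransferase, had V5 in both 6 h replicates at 1 of 3, and 4930533K18Rik at 0 of 3, although all 3 of its members had V5 in replicate A at 6 h. At its neighbouring members chr10:70322401-70324400 and chr10:70325201-70329400 this V5 island measured 7000 bp in each case. Their SETD5-V5 H3K27ac islands at 48 h measured 6600 bp in each replicate. These members may therefore share the same islands.

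Groups of genes were read from 14 lists, each as the number of genes with a member among those that had any distal 0 h island nearby. The share for all genes was 14.2%. A gene with more distal islands can more easily have a member, and the lists differed in this. The 42 extracellular matrix genes had 143 distal islands and the 21 preadipocyte factors 42, against 11215 for all 5378 genes. Genes of the actin cytoskeleton and of serum response factor (SRF), which drives contractile genes in fibroblasts, had members at 9 of 18. These 18 genes had 60 distal islands, which is also more per gene than over all genes. Among the 21 distal islands near these genes that were missing from both empty-vector 48 h lists, 14 were members, 4 were in a single SETD5-V5 list and 3 were lost with both vectors. Over all protein-coding genes these numbers were 896, 479 and 2292 of 3667. Mkl1, the actin-regulated coactivator of SRF, had 2 members, both with V5 in both replicates at 6 h. Filip1l and Fhl2, a LIM domain coregulator, had 2 members each. Other genes of this list with members were Acta2, Actn4, Cnn3, Tpm1 and Vcl, named here after their values were seen. H3K4me1 was present at 0 h at 13 of the 14 members and V5 in both 6 h replicates at 7. Over all 896 members near a gene these numbers were 645 and 354. In the extracellular matrix, Wnt and mesenchymal lists described next, H3K4me1 was present at 0 h at 9 of 15, 8 of 11 and 7 of 10 members.

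Extracellular matrix genes had members at 10 of 42, with 15 members next to 24 islands lost with both vectors and 81 kept. Thbs1 led with 3, and Col11a1 (a fibrillar collagen) and Postn (periostin, a matrix protein of fibroblasts) had 2 each. The others were Adamts1, Col12a1, Col5a1, Fbln1, Itgb1, Lox and Loxl1, named after their values were seen. Wnt signalling, when active, holds preadipocytes back from differentiation. Genes of its pathway, antagonists included, had members at 8 of 32, with 11 members and 16 lost islands. Sfrp2, a secreted Wnt modulator, Dkk2, a Wnt antagonist, and Ror1, a Wnt receptor, had 2 members each. V5 was present in both 6 h replicates at 5 of the 11, against 354 of the 896 members near any gene.

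Mesenchymal transcription factors had members at 7 of 31 genes, with 10 members, 9 lost islands and 48 kept. Besides Osr2 these included Tbx15 with 2 members, and Twist1, Nfia, Pbx3 and Zeb1 with 1 each, the last 4 named after their values were seen. Factors that mark preadipocytes or oppose fat cell formation had members at 4 of 21. Zfp521, a zinc finger repressor of adipogenesis, had 1 intronic member of 5800 bp on chromosome 18, its single distal island, with V5 in both 6 h replicates. Vgll3, a cofactor of TEAD proteins, had 1 intronic member, chr16:65849201-65852800, with V5 in both replicates at both times. Twist1 had 1 at chr12:34665801-34669000, 23.3 kb from its start and its single distal island within 50 kb, with V5 in both 6 h replicates and no H3K4me1.

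Growth factors and receptors had members at 5 of 32 genes, led by Epha2, an ephrin receptor with 3, and with Igf1 and its receptor Igf1r with 1 each. TEAD, YAP and their targets had them at 3 of 19 (Vgll3, Ptpn14 and Tead1), and AP-1 factors at 2 of 8 (Jdp2 and Batf). The TGF-beta and BMP pathway had them at 2 of 19 (Smad6 and Tgfbr2). The list of Setd5 and corepressor genes had them at 2 of 9, Hdac2 and Hdac3. Of these 2, Hdac3 alone is named in the NCoR-HDAC3 complex described above. Of 13 adipogenic regulators and adipocyte genes with a distal 0 h island, 0 had a member, and 39 of their 49 distal islands were kept with both vectors. The same count was 0 of 17 for chemokines and inflammatory cytokines, 0 of 14 for cell cycle genes and 0 of 10 for genes that respond to glucocorticoids. From the adipogenic list on, 2, 6, 8 and 6 nearby distal islands were missing from both empty-vector lists at 48 h. Only such islands could be members, so these counts of 0 rest on few islands. Without the limit of 50 kb these gene lists had 4, 3, 2 and 0 members. The numbers per list are small, the lists were chosen with results of these libraries known, and no list was tested against the rest.

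**Figure D5:**
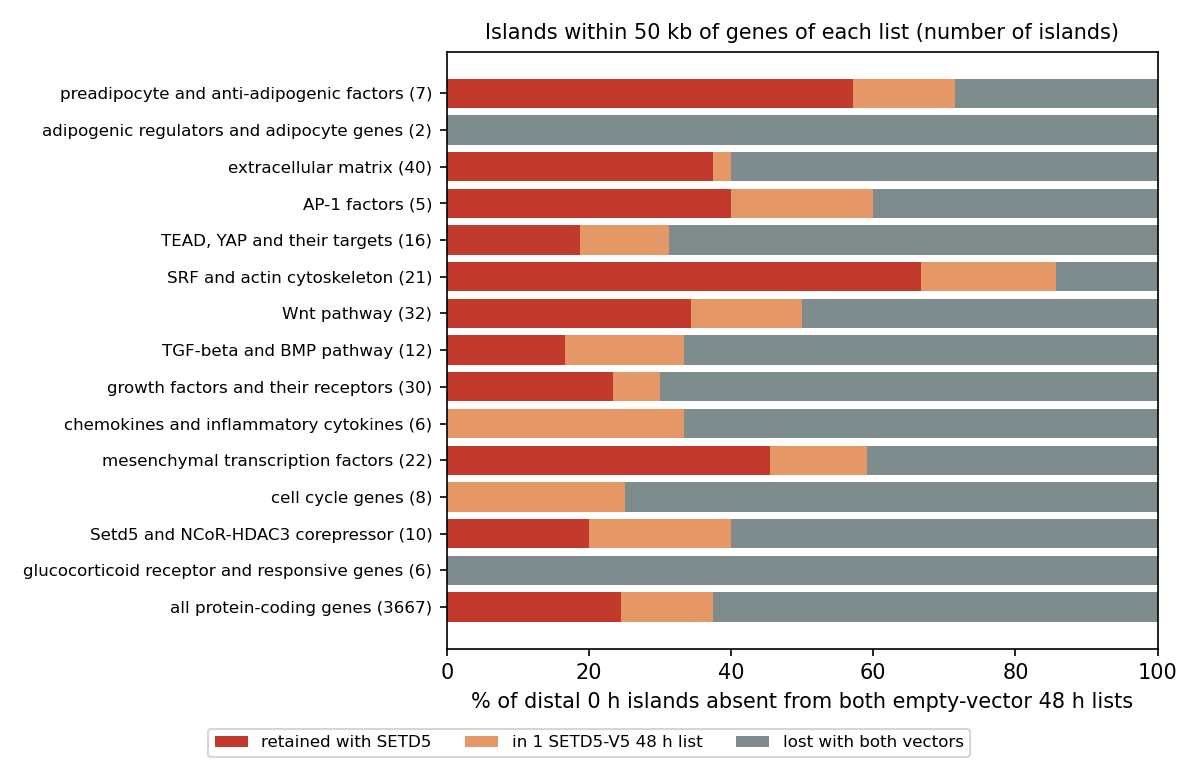
Distal 0 h islands missing from both empty-vector 48 h lists, by the list of the nearest protein-coding gene within 50 kb, as the percent retained with SETD5, found in 1 SETD5-V5 list, or lost with both vectors; the number of islands is in parentheses. The SRF and actin list has 14 retained of 21, and the adipogenic list has 0 of 2, against 896 of 3667 for all genes.

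The promoters of the nearest genes mostly kept H3K27ac whatever the vector. Of the 766 genes with a member, 537 had a promoter island in both empty-vector lists at 0 h, and at 468 of them (87.2%) the promoter island was present in all 4 lists at 48 h. This share was 91.8% over all genes with a distal 0 h island and 86.9% for genes with lost islands and no member. At 15 (2.79%) the promoter itself had an island in both SETD5-V5 lists at 48 h and in neither empty-vector list. This was read on the promoter alone, whereas the rule of the members reads the whole 0 h island. The share was 1.34% over the 3505 genes with any distal 0 h island and an acetylated promoter. Among such genes with lost islands and no member it was 1.74% (15 of 864). Among these 15 were Col14a1, Ccbe1, Il17rd, Gpr39 and Megf10, named after their values were seen. The share of the 766 genes with a promoter island was 72.3% and 71.3% with the empty vector at 0 h and 67.1% and 66.4% at 48 h. With SETD5-V5 it was 73.1% and 72.8% at 0 h and 71.3% and 71.9% at 48 h. Over all 5378 genes these shares stayed between 66.2% and 68.1% in all 8 lists. Among the named genes, Twist1, Osr2, Thbs1, Mkl1, Sfrp2, Tbx15 and Zfp521 had a promoter island in all 8 lists, and Smoc2 had none at 48 h with either vector. Because members and promoters come from the same libraries, these shares are given as a description.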

How the data were processed

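The 16 libraries are chromatin immunoprecipitation sequencing (ChIP-seq) of 3T3-L1 cells. Reads were aligned to mm9 by the authors with ELAND or Bowtie2, and enriched islands were called with SICER or its successor SICER2; which was used for which library is not given for alignment. For the replicate A H3K27ac libraries the study lists sizes from both callers, the deposited lists have the SICER2 sizes, and the earlier SICER gave fewer islands, with the widest gap in SETD5-V5 cells at 48 h. The deposited lists give each island's position and a score assigned by the authors, called per library; whether input entered the call is not stated. Bounds fall on multiples of 200 bp. No read counts were used, so depth per island is unknown, and counting error cannot be given.

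Islands were intersected with Python 3.11.15, numpy 2.4.6 and pandas 2.3.3, and figures drawn with matplotlib 3.10.9. Genes were those of the GENCODE annotation for mm9, and sequence came from NCBIM37. A gene was assigned by the nearest protein-coding transcript start within 50 kb, measured from the island's edges. Classes were compared as the share of islands overlapped in each library, as mean and SD over replicates. The difference between V5 at 6 h and 0 h was tested with an exact two-sided permutation test over libraries (scipy 1.17.1), and no test was made over islands. Overlap counting was tested on simulated data.

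Named regions are the 6 members with the highest scores and the 6 highest with V5 in both 6 h replicates. Named genes are the 12 with the most members and up to 3 per gene list, ties by summed score; some genes that meet this rule are not reported here. Sequence windows of 200 bp were those with the most motif matches. Members, lists and tests were chosen with earlier results of these data known. Alternatives were a 50% overlap, lists held to 31000 islands, islands above the median score, merged islands, replicate B as the start, a promoter of 5000 bp, other gene assignments, and leaving out a replicate.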

Additional observations from a re-analysis of the deposited data

How the results depend on the processing

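The number of members was 1230 with a 50% overlap, 905 with every list held to 31000 islands and 848 with islands above each list's median score. It was 3302 to 3418 when replicate A or B was left out of the rule, since fewer lists must then be met. The excess of members over lost islands stayed above 0 in each alternative run for V5 at 6 h (22.5 to 31.2 percentage points), H3K4me1 and SETD5-V5 H3K27ac at 0 h. With a 50% overlap it was 7.22 for H3K4me1 at 0 h and 12.4 for SETD5-V5 H3K27ac at 0 h, and with lists held to 31000 islands 9.37 for H3K4me1 at 48 h and 20.0 for SETD5-V5 H3K27ac. Among islands of 1400 to 2600 bp the last was 18.6. The cause of these shifts was not tested. Leaving out a replicate gave 12.1 to 16.1 for H3K4me1 at 0 h, 16.5 to 16.7 for H3K4me1 at 48 h, 15.0 to 23.9 for SETD5-V5 H3K27ac at 0 h and 3.79 to 8.40 for the AP-1 word over whole islands. The AP-1 difference reversed to -0.803 with a 50% overlap, -1.16 among islands of 1400 to 2600 bp and -0.00772 in the central 1000 bp. Members near genes of any list numbered 68, and 171 without the distance limit.

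The V5 difference between 6 h and 0 h ranged from 1.90 to 37.4 percentage points, the lowest with V5 lists held to 6000 islands. With the replicate letter as a block it was 35.0, and 2 pairs allow no p below 0.5; the letters are not known to pair the samples. A region missing from a list may lie just under the caller's threshold, and single libraries of H3K4me1 and endogenous SETD5 give no replicate error.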
